A study of Mus musculus with 6 samples.

Results

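The genes described here are 10 metabolic genes, grouped as mitochondrial and redox metabolism, that are reported as targets of p53: Aldh4a1, Gls2, Acad11, Cpt1c, Lpin1, Gamt, Gpx1, Sco2, Fdxr and Pank1. They were taken by name, 10 of 21887 protein-coding RefSeq genes, together with every p53 ChIP-seq summit inside a gene or within 50 kb of either of its ends. That rule took 8 of 1668 summits of the list for wild-type p53 (WT) and 13 of 6753 summits of the list for the p53 form named 3KR. A summit is the single base at which the authors' peak caller placed the top of a peak.

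The cells were basal progenitors of mouse epidermis, sorted as high in alpha-6 integrin and positive for EpCAM, from mice aged 8 weeks with the genotype p53WT or p533KR. By the series' description, cells of both genotypes were exposed to Nutlin-3a, a compound that stabilises p53 by blocking MDM2, at 25 µM during tissue digestion. From general knowledge of the allele, 3KR p53 has lysines of its DNA-binding domain replaced by arginines. There were 3 libraries per genotype and 1 combined list of summits per genotype, so no spread between animals or libraries can be given, the depth behind each list is unknown, and no difference between genotypes below was tested. Summit names carry a run label that ends in the number 1 for WT and contains Doxo for 3KR, which goes against the labels of combined libraries and Nutlin-3a. How many libraries each list rests on, and whether the cells of the 3KR list had a further compound, was not tested.

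As background, p53 is a transcription factor that binds a pair of 10-base DNA units (decamers), and it is best known for arresting or killing damaged cells. It also acts on metabolism: its reported targets include enzymes that feed amino acids and fatty acids to mitochondria, enzymes that remove peroxides, and factors that assemble the respiratory chain. In epidermis, whose basal cells divide throughout life and meet ultraviolet light and oxygen, p53 is known for its part in the response to DNA damage.

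In WT, 4 of the 10 genes had a summit within 50 kb, namely Aldh4a1, Acad11, Gamt and Gpx1, against 11.6% of all coding genes. In 3KR, 6 of 10 had one, the same 4 with Gls2 and Cpt1c, against 42.2% of all coding genes, a share too near to that of the 10 genes to be read as a property of the group. Each of the 4 genes with a WT summit also had a site shared by both lists, meaning a WT and a 3KR summit at most 200 bp apart, which 7.22% of coding genes had. Sco2, Fdxr, Lpin1 and Pank1 had no summit within 50 kb in either list, and neither did 56.1% of all coding genes. The genes were chosen as reported p53 targets with earlier results of these data known, so these counts describe the genes and are not evidence that the group is bound more often than others.

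**Figure D1:**
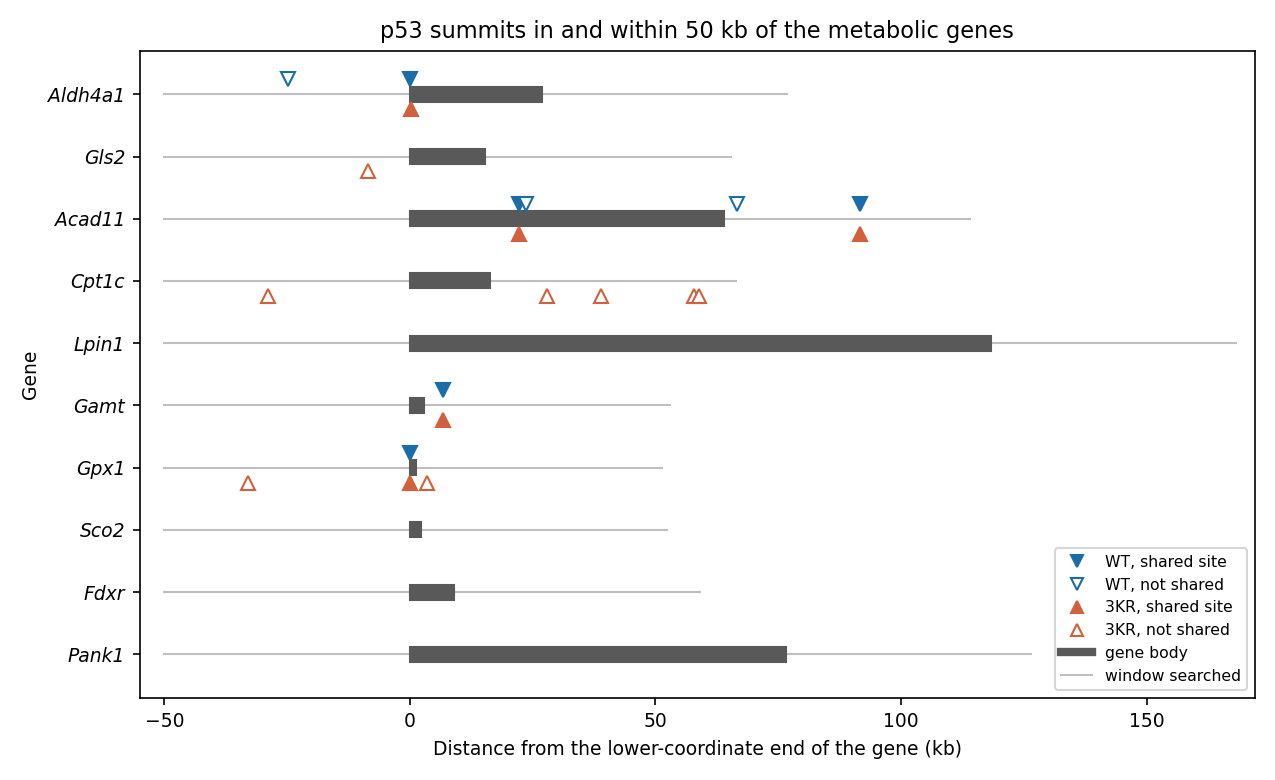
Position of each summit relative to the 10 genes, in kb from the end of the gene with the lower coordinate. Bars are gene bodies, thin lines the stretch searched, downward triangles WT and upward triangles 3KR summits, filled where both lists had a summit at most 200 bp apart; filled pairs stand at Aldh4a1, Acad11, Gamt and Gpx1, and 4 genes have no summit.

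The sites differed in how close they came to the gene that gave them their place. The WT count was 4 within 10 kb as well, where 5.04% of coding genes had a summit, and 3 within 1 kb, where 3.51% did. Shared sites within 10 kb stood at the same 4 genes and at 3.11% of coding genes. The 3KR count fell to 5 within 10 kb (23.4% of coding genes) and 3 within 1 kb (17.3%). The 3 genes with a summit within 1 kb in each list were Aldh4a1, Acad11 and Gpx1.

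**Figure D2:**
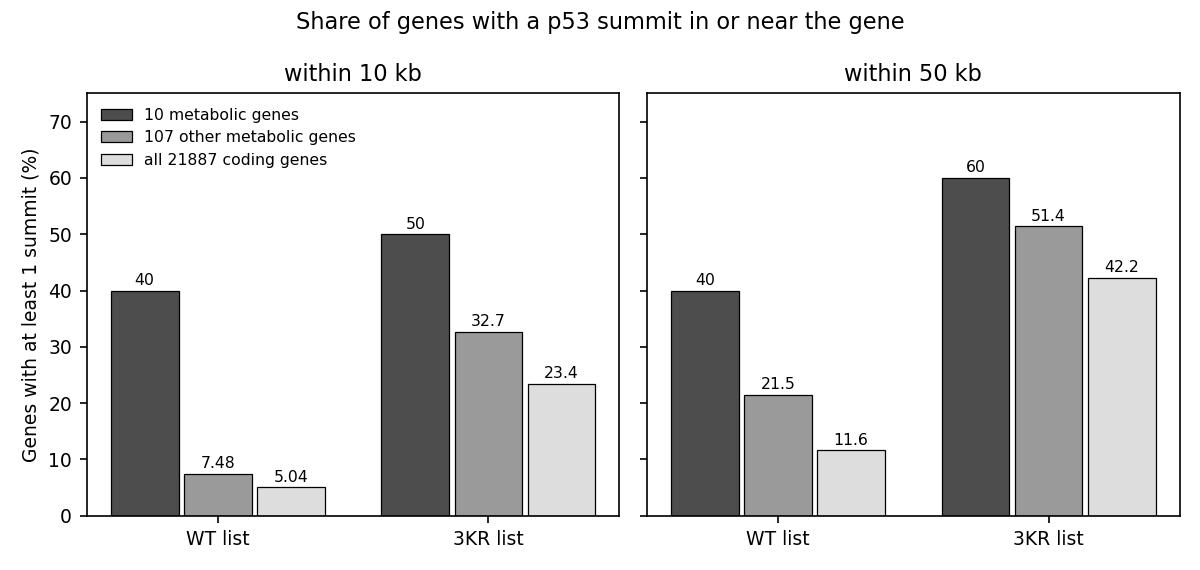
Percent of genes with at least 1 summit within 10 kb (left) or 50 kb (right), for the 10 genes, 107 other metabolic genes and all 21887 coding genes. In WT 4 of the 10 genes have one at either distance, beside 5.04% and 11.6% of all coding genes, and in 3KR 5 and 6 of the 10, beside 23.4% and 42.2%.

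The stretches of promoter below are shown because shared sites lay inside or just beside them. They are RefSeq sequences of GRCm38.p6, whose chromosomes are those of mm10, written in the direction of transcription. Capitals mark decamers that match the p53 consensus with few mismatches, as described after them. The stretch of Gpx1 is chr9:108338930-108339093 on the plus strand, from 150 bases before the annotated start to 13 after it. The stretch of Aldh4a1 is chr4:139622744-139622870 on the plus strand. That of Dazap1, the neighbour of Gamt, is chr10:80264864-80265013 on the plus strand, the 150 bases before one of its starts, and holds the summits of both lists. It has no capitals, since the closest pair of decamers in the promoter window of Dazap1 has 4 mismatches. A single decamer with 1 mismatch, at 80264859 to 80264868, runs across the upstream edge of the stretch.
Gpx1: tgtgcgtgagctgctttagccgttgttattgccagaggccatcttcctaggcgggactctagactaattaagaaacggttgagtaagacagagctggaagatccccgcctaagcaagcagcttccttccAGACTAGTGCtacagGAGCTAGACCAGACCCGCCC
Aldh4a1: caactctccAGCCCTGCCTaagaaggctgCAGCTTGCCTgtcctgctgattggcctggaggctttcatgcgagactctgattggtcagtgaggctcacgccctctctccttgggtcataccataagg
Dazap1: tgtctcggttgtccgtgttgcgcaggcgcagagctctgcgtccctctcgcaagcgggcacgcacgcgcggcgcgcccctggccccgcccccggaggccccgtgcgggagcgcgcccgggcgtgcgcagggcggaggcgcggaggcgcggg

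Gpx1 encodes glutathione peroxidase 1, a selenium enzyme that reduces hydrogen peroxide with glutathione. The gene lies on chromosome 9 (108339080 to 108340342) and is 1.26 kb long. Its WT summit was at 108339137, 57 bp past the annotated start and inside the gene, with a score of 9.72 and rank 780 of 1668. The score is −log10 of a p or q value, as the authors' peak caller gave it, and is used only to rank summits within a list. The 3KR partner was at 108339063, 17 bp before the start and 74 bp from the WT summit, with a score of 25.7 and rank 714 of 6753. So the summits of the lists stood on either side of the start of Gpx1. The next gene, Rhoa, ends 1194 bp from the WT summit.

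Sites of p53 were searched as 2 decamers that each keep the C and G of the core, with at most 3 mismatches in 20 bases. The consensus reads the same on both strands. Without a spacer, 1.38% of 32841 promoter windows of 300 bases held such a site, and of the 9 genes with a window only Gpx1 did. Its site has 3 mismatches and covers 108339074 to 108339093, from 6 bases before the start. The first decamer of that site also pairs with one further upstream across a spacer of 5 bases, with 1 mismatch in each decamer. With spacers of up to 13 bases, 4.09% of windows held a pair with at most 2 mismatches. The 3KR summit fell inside the upstream decamer of the Gpx1 pair. The WT summit, at 108339137, lay past both the pair and the site that ends at 108339093. Matches are descriptions of the letters and do not show where p53 was bound.

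The closest pairs at Gpx1, Aldh4a1 and Fdxr are set side by side, since these were the 3 genes with at most 3 mismatches once spacers of 0 to 13 bases were allowed, as in 15.6% of windows. Capitals are the decamers and small letters the spacer.
Gpx1: AGACTAGTGCtacagGAGCTAGACC
Aldh4a1: AGCCCTGCCTaagaaggctgCAGCTTGCCT
Fdxr: GGGCATGGTTctctttggGGGCGTGGTT
The pair of Aldh4a1 (chr4:139622753-139622782, plus strand) and that of Fdxr (chr11:115277067-115277094, minus strand) each have 3 mismatches, with spacers of 10 and 8 bases. Fdxr carries its pair without a summit within 50 kb in either list.

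**Figure D3:**
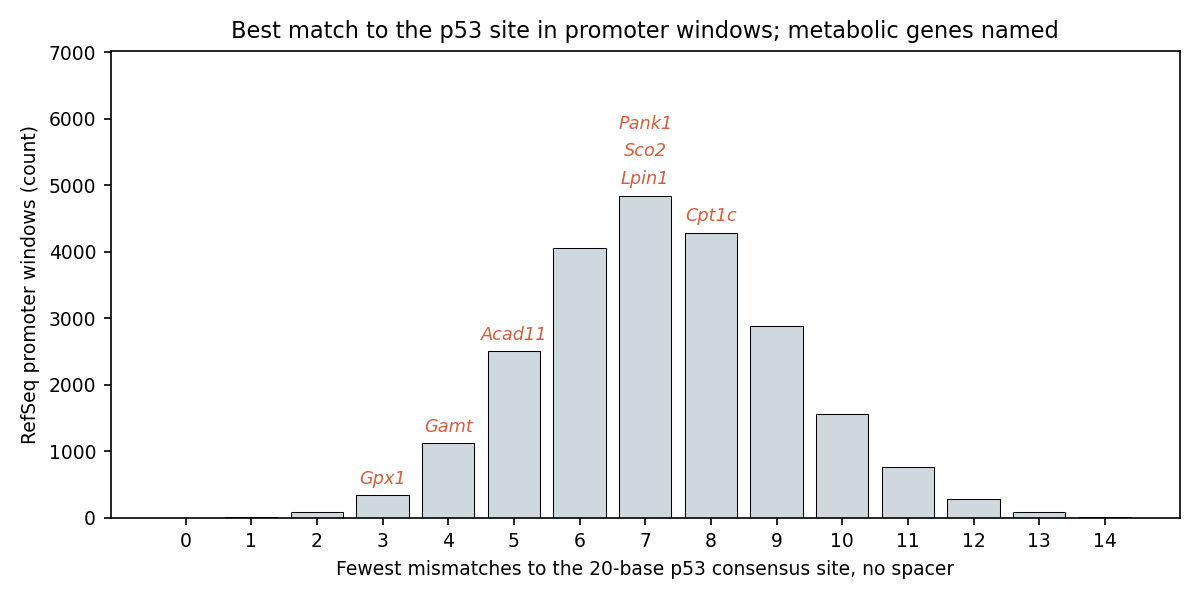
Number of RefSeq promoter windows (vertical axis) by the fewest mismatches to the p53 consensus site without a spacer (horizontal axis), with the 10 genes' windows named above their bar. Gpx1 stands at 3 mismatches, Gamt at 4 and the others at 5 or more; 30.4% of windows, with those of Aldh4a1 and Fdxr and the second of Pank1 among them, have no adjoining pair of decamers with both cores and are not drawn, and Gls2 has no window.

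The other promoter windows stood further from the consensus. Without a spacer the closest site had 4 mismatches at Gamt, 5 at Acad11, 7 at Sco2, Lpin1 and Pank1, and 8 at Cpt1c. The core CATG alone was in 61.1% of all windows, and it was in those of Aldh4a1, Acad11, Cpt1c, Lpin1, Fdxr and Pank1 and not in those of Gamt, Gpx1 and Sco2.

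Amino acid breakdown was represented by Aldh4a1 and Gls2. Aldh4a1 encodes the mitochondrial dehydrogenase that completes the conversion of proline to glutamate (chromosome 4, 139622871 to 139649691). Its shared site lay at the start of the gene, with the WT summit at 139622986, 92 bp past the annotated start, and the 3KR summit at 139623003, 109 bp past it. The summits were 17 bp apart. The WT score was 11.9 at rank 596 of 1668, and the 3KR score 12.1 at rank 2549 of 6753, so 35.7% and 37.7% of the respective list ranked above them. A second WT summit, at 139598003, lay 24.9 kb outside Aldh4a1 and inside Iffo2, ranked 1604 of 1668 and had no 3KR partner. The promoter stretch of Aldh4a1 printed above ends before its summits.

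Gls2 encodes the liver-type glutaminase, which turns glutamine into glutamate in mitochondria (chromosome 10, 128194635 to 128210004). It had no WT summit nearer than 269 kb. Its 3KR summit, at 128186022, was 8.61 kb outside the gene and nearer to Rbms2, at 5.72 kb, with a score of 6.27 and rank 5381 of 6753. Within 10 kb a 3KR summit was found for 23.4% of coding genes.

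Among genes of fatty acid metabolism, Acad11 had the most WT summits of the 10. It encodes an acyl-CoA dehydrogenase that takes part in the breakdown of long fatty acids (chromosome 9, 104063724 to 104127656). Within 50 kb it had 4 WT and 2 3KR summits, and 99.8% of coding genes had fewer WT summits in that distance, while 82.4% had fewer in 3KR. These counts are not scaled to gene length: Acad11 is 63.9 kb long, where the median coding gene is 17.2 kb. The shared site inside the gene had its WT summit at 104085888, 22.2 kb past the start, with a score of 18.0 and rank 319. The 3KR summit lay 68 bp away at 104085956, with a score of 20.6 and rank 1092. These were the highest ranked summits inside any of the 10 genes, in either list. In 3KR, however, only 2 summits lay inside one of the 10 genes. Some outside them ranked higher, such as that 17 bp from Gpx1 at rank 714.

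A further WT summit inside Acad11 stood at 104087308, 23.6 kb past the start, with a score of 9.29 and rank 845, and another 2.67 kb beyond the far end of the gene at 104130329, with rank 1535. Neither had a 3KR summit within 200 bp. The remaining pair of summits, at 104155261 in WT and 104155278 in 3KR, lay 27.6 kb beyond Acad11, inside Dnajc13, a gene of an endosomal co-chaperone. They ranked 327 and 1008. All Acad11 summits thus lay at least 22.2 kb from its annotated start.

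Cpt1c encodes a brain-enriched member of the carnitine palmitoyltransferase family (chromosome 7, 44958483 to 44974880). It had no WT summit within 50 kb, although one stood just past that distance, 50.8 kb away at 45025677. In 3KR it had 5 summits, from 11.5 to 42.5 kb away, more than 98.8% of coding genes. Each was nearer to another gene. The summits at 44929686, 44986414, 44997477 and 45016354 lay in the promoter windows of Ap2a1, Prmt1, Irf3 and Scaf1, and the one at 45017407 was 535 bp from Rras. Cpt1c has 7 other coding genes within 50 kb, where the median coding gene has 3. The 5 summits scored 5.13 to 13.6, and the best rank was 2159 of 6753. The 3KR count at Cpt1c is therefore a count of summits beside the ends of neighbouring genes.

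Lpin1 encodes a phosphatidate phosphatase that also acts with nuclear regulators of fatty acid oxidation (chromosome 12, 16535669 to 16653903). It is the longest of the 10 genes, at 118 kb, and had no summit inside it or within 50 kb. The nearest summits of both lists lay 94.0 kb away and 4 bp apart, at 16747868 in WT and 16747864 in 3KR, nearest to Greb1. They ranked 62 of 1668 and 365 of 6753.

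Gamt encodes the methyltransferase that makes creatine from guanidinoacetate (chromosome 10, 80258151 to 80261025). Its shared site was 3.92 kb upstream, with the WT summit at 80264949 and the 3KR summit at 80264942, 7 bp apart. Both lay inside the neighbour Dazap1, which encodes an RNA-binding protein, 65 and 72 bp before one of its annotated starts. The WT summit scored 8.54 at rank 915 of 1668, and the 3KR summit scored 54.1 at rank 165 of 6753. The latter was the highest ranked of the 13 3KR summits. When each summit was given to its nearest coding gene alone, this site went to Dazap1 and not to Gamt.

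**Figure D4:**
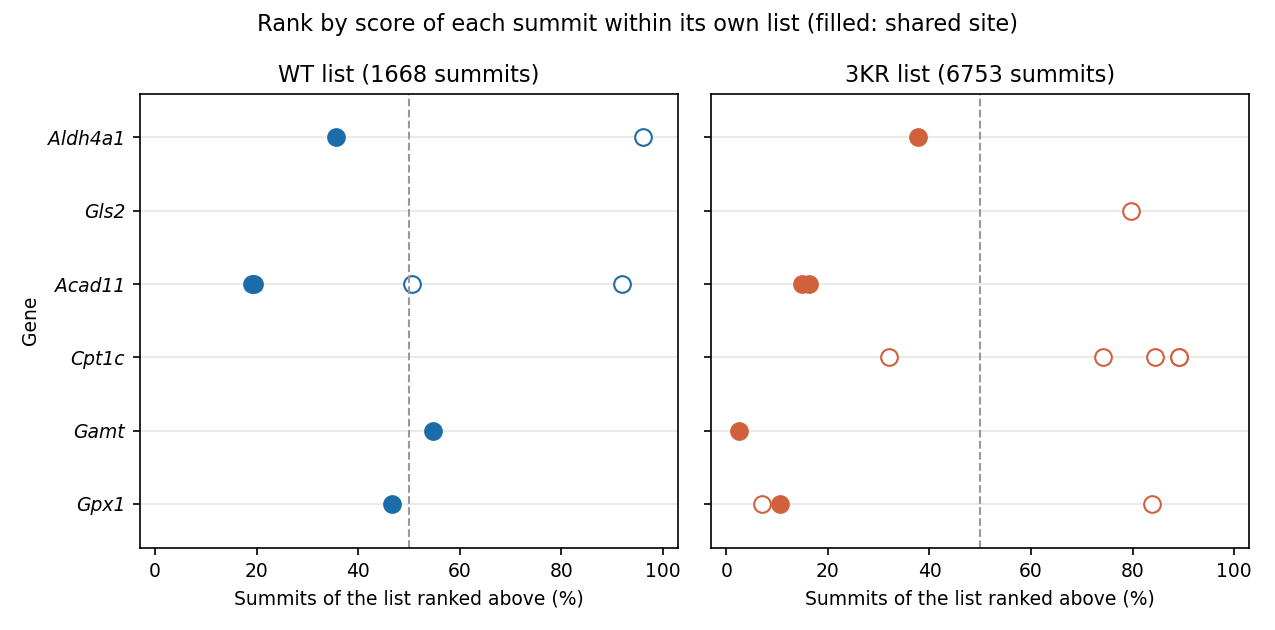
Percent of the list ranked above each summit by score (horizontal axis, lower is higher scored) for the 6 genes with a summit, WT on the left and 3KR on the right. Filled points are shared sites and the dashed line marks the middle of the list; ranks are read within a list, where the 2 shared Acad11 sites lead in WT (19.1% and 19.5%) and the Gamt site in 3KR (2.43%).

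Gpx1 had a pair of further 3KR summits without a WT partner. One, at 108342555, was 2213 bp beyond the gene and ranked 5663. The other, at 108306047, was 33.0 kb away in the promoter window of Rhoa, a small GTPase gene, and inside Tcta, with a score of 32.8 and rank 477. So of the 3 3KR summits credited to Gpx1, that at its own start ranked below the one at Rhoa.

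Sco2, Fdxr and Pank1 had no summit nearby in either list. Sco2 encodes a copper chaperone for cytochrome c oxidase (chromosome 15, 89371630 to 89373891), and its nearest summits were 903 kb away in WT and 193 kb in 3KR. It has 9 other coding genes within 50 kb, more neighbours than 96.2% of coding genes. Fdxr encodes ferredoxin reductase, which passes electrons to ferredoxin in mitochondria (chromosome 11, 115268024 to 115277101), and its nearest summits were 501 kb away in WT and 237 kb in 3KR. Pank1 encodes pantothenate kinase, the enzyme that opens coenzyme A synthesis (chromosome 19, 34806935 to 34883423), and its nearest summits were 1830 kb and 199 kb away. The absence of a summit from a list says only that none was called at its depth, which is unknown.

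Over all 10 genes, 5 of the 8 WT summits were shared, beside 53.1% of the whole WT list, and 8 of the 13 3KR summits were not, beside 87.0% of the 3KR list. The partners were 7 to 74 bp apart, with a median of 17 bp, where the median over all 885 WT summits with a partner was 22 bp. In WT 4 of 8 summits scored above the list's median of 9.42, and in 3KR 7 of 13 above the median of 10.1. A promoter window of any gene held 1 of the 8 WT summits, beside 7.25% of the list, and 7 of the 13 3KR summits, beside 20.5% of the list. Only 1 of these 7, the Gpx1 summit, was in the window of the gene it was credited to. Those in the windows of Ap2a1, Prmt1, Irf3 and Scaf1 all came from the stretch searched around Cpt1c. Summits of the 10 genes were also taken for lying in or near genes, unlike the whole list. Their promoter shares and those of the list are therefore not like for like.

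The rest of the same pathways was followed in 107 other metabolic genes. Within 50 kb, 23 had a WT summit (21.5%, beside 11.6% of coding genes) and 55 a 3KR summit (51.4%, beside 42.2%). Within 10 kb the counts were 8 (7.48%, beside 5.04% of coding genes) and 35 (32.7%, beside 23.4%). The counts by role that follow are to be read against the same shares of coding genes. Of the 107, 6 had a summit within 10 kb in both lists, and 48 had none within 50 kb in either.

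In amino acid breakdown, 2 of 13 other genes had a WT summit within 10 kb and 5 of 13 a 3KR summit. Within 50 kb the counts were 3 and 7. Oat, ornithine aminotransferase, had a WT summit inside the gene at rank 1276 and no 3KR summit within 50 kb.

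In fatty acid metabolism, 2 of 25 other genes had a WT summit within 10 kb and 10 of 25 a 3KR summit. Within 50 kb the counts were 6 and 15. Hadha and Hadhb, the subunits of the mitochondrial trifunctional protein of beta-oxidation, share the stretch between their starts. There the lists had a shared site, with the WT summit at 30155194 on chromosome 5 at rank 980 and the 3KR summit at 30155187 at rank 2989. One site thus accounts for both genes. Among these other genes, the highest ranked 3KR summit within 10 kb, at rank 1978, was credited to Acadm, a medium-chain dehydrogenase, but lay 9.32 kb outside it in the promoter window of Rabggtb. Lpin3, a relative of Lpin1, had a 3KR summit inside the gene, 649 bp from the nearer of its ends, and is named after its values were seen.

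Among peroxide and thiol enzymes, 3 of 24 other genes had a WT summit within 10 kb and 7 of 24 a 3KR summit. Within 50 kb the counts were 5 and 13. Gsr, glutathione reductase, and Txnrd1, a thioredoxin reductase, had WT summits inside the gene at ranks 1035 and 1510, without a 3KR partner. Txnrd1 did have 2 3KR summits at other places within 10 kb, the higher ranked inside the gene at rank 3635, while Gsr had none. The WT summit of Prdx2, a peroxiredoxin, was 5.60 kb outside and nearest to Junb, without a 3KR partner. Prdx2 also had 3 3KR summits within 10 kb, the highest ranked 1.48 kb outside it at rank 5347. Among these other genes, the highest ranked 3KR summit within 10 kb was 8.51 kb outside Prdx1, another peroxiredoxin, at rank 681 and in the promoter windows of Ccdc163 and Mmachc. Of the genes of this role with a WT summit within 10 kb, Gpx1 was thus the one with a shared site.

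In cytochrome oxidase assembly and the ferredoxin system, 0 of 14 other genes had a WT summit at either distance, and a 3KR summit was found for 4 of 14 within 10 kb and 5 of 14 within 50 kb. Cox11, an assembly factor, led those within 10 kb with a 3KR summit 50 bp outside the gene at rank 1092, in a promoter window it shares with Stxbp4. In coenzyme A synthesis, 0 of 7 had a WT summit within 10 kb and 3 of 7 a 3KR summit, led by Pank2, a pantothenate kinase, at rank 1813 and inside the gene. Within 50 kb 2 of 7 had a WT summit, Coasy and Slc25a42, which are named after their values were seen, and 4 of 7 a 3KR summit. Both roles held other genes with 3KR summits. In cytochrome oxidase assembly their shares, 28.6% within 10 kb and 35.7% within 50 kb, were near the 23.4% and 42.2% of coding genes. In coenzyme A synthesis, with only 7 other genes, the shares were higher, at 42.9% and 57.1%. Sco2, Fdxr and Pank1 had no summit within 50 kb in either list, like 56.1% of all coding genes, so this does not set them apart.

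None of the 6 other genes of the creatine pathway had a summit within 10 kb in either list. Within 50 kb 2 of 6 had one, in both lists, Ckm and Ckmt2, which encode creatine kinases and are named after their values were seen. In glycolysis and the pentose phosphate pathway, 1 of 18 genes had a WT summit within 10 kb, Hk1, a hexokinase, inside the gene at rank 1323, and 6 of 18 had a 3KR summit. Within 50 kb the counts were 5 and 9. The WT summit of Hk1 had no 3KR partner. Hk1 did have 2 3KR summits at other places within 10 kb, the higher ranked inside the gene at rank 762. Among the 18 genes, the highest ranked 3KR summit within 10 kb, at 363, was inside Pfkfb3, whose product sets the level of an activator of glycolysis.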

How the data were processed

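Binding of p53 was measured by ChIP-seq in 6 libraries, 3 per genotype. BWA, MACS2 and the mm10 build are named, without versions, per the submitters' processing notes; the control, the calling threshold and the pooling of libraries were not given in the sources used here, as far as labels and headers go. The authors deposited 1 list of single-base summits per genotype, with a score read as −log10 of a p or q value. Depth is unknown.

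Summits were assigned with Python 3.11.15, pandas 2.3.3 and NumPy 2.4.6 to RefSeq genes of GRCm38.p6 by distance to the gene body. Summits at most 200 bp apart were 1 site. Ranks give tied scores the best rank. Positions are 1-based. Promoter windows cover 250 bases before to 50 after a start; 10 with undetermined bases were left out. Exons, introns and sequences around other summits were not used here, so the planned search of fixed windows at summits was not run. Steps were tested on simulated data.

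The genes, and the 107 other metabolic genes (106 found by symbol, 1 by synonym), were chosen with earlier results of these data known, and each genotype has 1 list without replicate values, so no test was run; alternatives varied distance, score limits, gene assignment, the shared-site rule and mismatches. Named were the 10 genes, the gene nearest to each of their summits, other metabolic genes with a WT summit within 10 kb, and the highest scored 3KR gene per role. Of the genes this rule names, 1 is not reported here.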

Additional observations from a re-analysis of the deposited data

How the results depend on the processing

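No paired analysis was possible because each genotype has 1 combined list, which also leaves no replicate to leave out. Distances, score limits, gene assignment and the rule for a shared site were varied. With scores of at least 10, the genes with a WT summit went from 4 to 2 and those with a shared site from 4 to 2. The 3KR count of 6 became 3 within 1 kb, 3 by nearest gene alone and 3 when only as many of the highest scored 3KR summits were kept as WT has, where 15.1% of coding genes had a summit. The WT count ranged from 3 to 6 under the other alternatives and the shared count from 3 to 4. Leaving out summits in another gene's promoter window, chosen after seeing the data, gave 3 in WT and 5 in 3KR. Among these alternatives, a share of all coding genes was taken only for distances of 1 and 10 kb and for the shortened 3KR list. The other counts therefore cannot be set beside such a share and describe the 10 genes alone. For the other metabolic genes the WT count of 23 became 8 within 10 kb and 6 in the top 50% by score, and the 3KR count of 55 became 35 within 10 kb. The number of genes with a p53 consensus site in a promoter window, 1 as reported, was 0 with at most 2 mismatches, 2 with at most 4 and 3 with spacers. A stricter setting has fewer summits or matches by construction, and a looser one more.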
